A study of Mus musculus with 4 samples.

Results

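Decitabine is a cytidine analogue that is built into replicating DNA, traps DNA methyltransferases there and so lowers DNA methylation. Its effect on the genes of the ISG15 pathway was read from BR5FVB1-Akt cells, a mouse line that the labels call ovarian cancer. The pathway was taken as 5 genes, Isg15, Uba7, Ube2l6, Herc6 and Usp18, chosen by symbol for their roles, and all 5 were found among the 22180 genes tested. Each had 1 array row that carried its symbol alone, so no choice between rows was needed, and 0 rows that it shared with another symbol. Groups were cells given 10 uM decitabine for 72 h (2 samples) and control cells without decitabine (2 samples). Both groups were grown in the same serum-containing medium, and each sample was hybridised to 1 Affymetrix Mouse Gene 2.0 ST array. The labels name no further genetic change of the line and do not say how the biological replicates were cultured, so the p-values measure the spread between these 4 arrays, whether or not it is technical.

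ISG15 is a ubiquitin-like protein that is attached to other proteins during the interferon response, also circulates free, and acts outside the cell as a cytokine. Attachment runs through a cascade like that of ubiquitin. Uba7 is the E1 enzyme that activates ISG15, Ube2l6 is the E2 that carries it, and Herc6 is the main E3 ligase that attaches it in the mouse, where the human ligase HERC5 has no counterpart gene. Usp18 is the protease that removes ISG15 from proteins, and it also binds the interferon receptor chain Ifnar2 and the transcription factor Stat2 and so restrains type I interferon signalling. All 5 genes are known as interferon-induced genes, and interferon acts on such genes largely through the interferon-stimulated response element, a promoter motif built from repeats of GAAA.

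The 300 bases around the start of each gene, 250 before it and 50 after it, are shown because the 5 genes share this textbook inducer. They come from RefSeq on build GRCm38.p6, which held a promoter for 4 of the 5 genes and none for Usp18. The region of Isg15 is chr4:156200769-156201068 on the minus strand, that of Uba7 chr9:107975317-107975616, that of Ube2l6 chr2:84798578-84798877 and that of Herc6 chr6:57580742-57581041, these 3 on the plus strand. Capitals mark matches to GAAANNGAAA or to the looser AAANNGAAA, on either strand, where N is any base and each match to the first contains one to the second.
Isg15: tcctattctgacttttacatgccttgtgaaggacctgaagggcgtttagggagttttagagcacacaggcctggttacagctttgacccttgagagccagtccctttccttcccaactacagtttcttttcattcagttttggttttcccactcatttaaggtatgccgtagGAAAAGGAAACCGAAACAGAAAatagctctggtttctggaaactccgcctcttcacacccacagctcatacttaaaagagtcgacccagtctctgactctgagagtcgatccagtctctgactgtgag
Uba7: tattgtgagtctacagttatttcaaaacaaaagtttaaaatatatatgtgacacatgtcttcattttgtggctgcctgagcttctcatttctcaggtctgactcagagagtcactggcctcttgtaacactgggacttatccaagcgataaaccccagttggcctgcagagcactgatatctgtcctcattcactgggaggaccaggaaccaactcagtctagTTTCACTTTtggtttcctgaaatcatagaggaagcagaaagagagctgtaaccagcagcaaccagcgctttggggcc
Ube2l6: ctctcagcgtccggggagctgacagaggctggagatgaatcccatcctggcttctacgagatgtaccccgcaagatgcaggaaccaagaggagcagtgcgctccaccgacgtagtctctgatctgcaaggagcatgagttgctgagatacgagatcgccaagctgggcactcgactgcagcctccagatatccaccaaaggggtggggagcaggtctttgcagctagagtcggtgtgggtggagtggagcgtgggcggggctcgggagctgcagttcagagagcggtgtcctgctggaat
Herc6: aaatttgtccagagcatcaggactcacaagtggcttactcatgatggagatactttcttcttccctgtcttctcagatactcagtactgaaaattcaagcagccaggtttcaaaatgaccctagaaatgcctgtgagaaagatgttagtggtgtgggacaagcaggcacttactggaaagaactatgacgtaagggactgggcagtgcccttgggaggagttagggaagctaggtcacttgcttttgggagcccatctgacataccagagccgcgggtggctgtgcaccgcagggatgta

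Isg15 held 3 overlapping matches to GAAANNGAAA, which began 78, 72 and 66 bases before its start. Uba7 held no such match, and its 1 match to AAANNGAAA lay on the opposite strand, 27 bases before the start. The windows of Ube2l6 and Herc6 held neither. Of 32851 promoters of the same length, 3.44% held GAAANNGAAA and 10.6% held AAANNGAAA. The gene lists were counted by gene, with a match in any promoter of the gene, while the shares above were counted by promoter. In a list of interferon-induced antiviral genes, several of whose proteins are known targets of ISG15, 8 of 10 genes held GAAANNGAAA. Genes of the type I interferon signal chain held it in 2 of 11, other ubiquitin-specific proteases in 0 of 24 and the other HERC ligases in 0 of 4. The matches are letters in a window and were not measured as binding. Any relation between the matches and the size of a gene's change was not tested, and no promoter was held for Usp18. Since decitabine lowers methylation of CG sites, their number was counted too. There were 6 CG dinucleotides in the window of Isg15, 2 in that of Uba7, 15 in that of Ube2l6 and 4 in that of Herc6, against a median of 7 over all promoters. Methylation itself was not measured.

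Values are read as log2 expression from their range, so a difference of 1 is taken as a doubling, and the log base is not given in the sources used here. All 5 pathway genes lay higher on both decitabine arrays than on both control arrays, a pattern found for 23.4% of all genes tested. The protease gene Usp18 and the modifier gene Isg15 differed most, by 4.56-fold and 2.66-fold, and the 3 genes of the attachment enzymes by 1.25-fold to 1.44-fold. At an adjusted p under 0.05 (limma, Benjamini-Hochberg over all genes), 1 of the 5 rose, Usp18, and 0 fell, against 0.131% of all genes called higher and 0.0135% called lower. Without adjustment, 4 of the 5 were higher at p under 0.05, all but Ube2l6, and 0 lower, against 7.34% and 6.97% of all genes. In RNA from whole cultures, more cells that express a gene and more of its RNA per cell cannot be told apart. The median log2 fold change was 0.52 over the 5 genes and 0.004 over all genes tested.

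**Figure D1:**
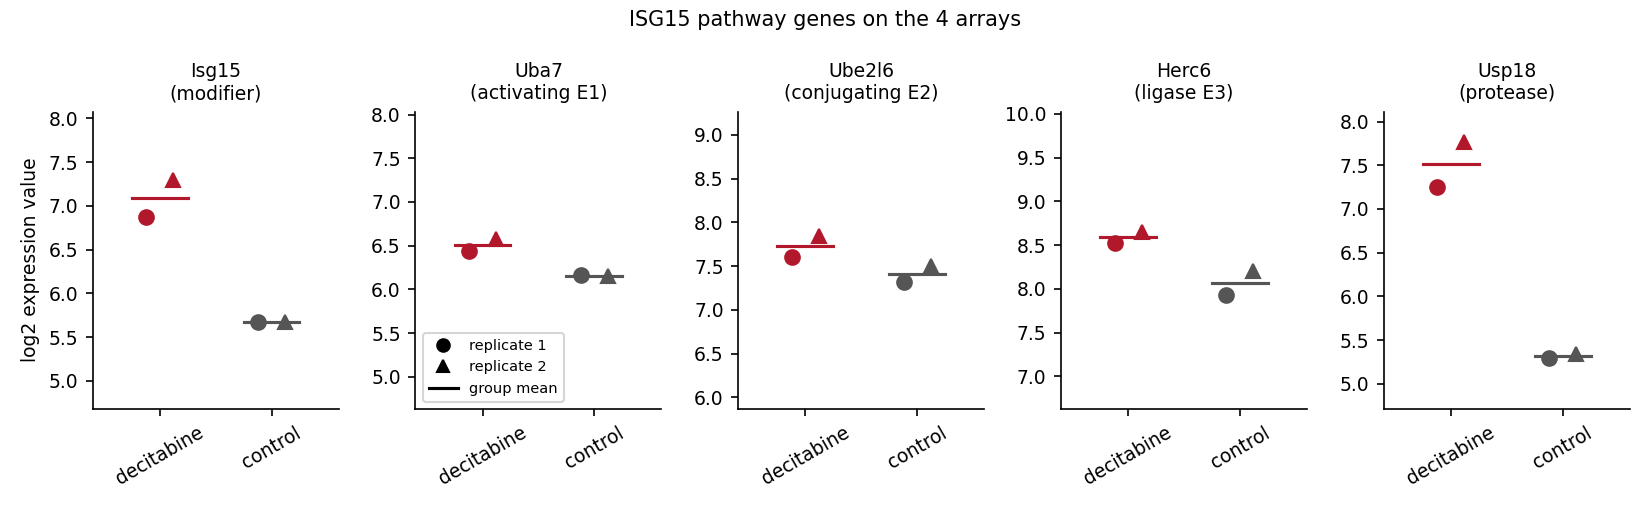
Log2 expression value (y axis, 1 panel per gene, each panel spanning the same number of log2 units) on the decitabine and control arrays, with circles for replicate 1, triangles for replicate 2 and a line at the group mean. In every panel both decitabine points lie above both control points, with the widest gap in Usp18 (1.91) and the narrowest in Ube2l6 (0.11).

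The gene of the modifier itself, Isg15 (array row 17434023), had log2 values of 6.87 and 7.30 on the decitabine arrays, against 5.67 and 5.68 on the control arrays. The control arrays were nearly equal, the decitabine arrays lay 0.43 apart, and the gap between the groups was 1.20, or 2.81 times the larger distance within a group. The group means were 7.09 ± 0.30 with decitabine and 5.67 ± 0.003 in control (SD, n = 2 each). The log2 fold change was 1.41 ± 0.16 (SE), with a 95% confidence interval of 0.99 to 1.83, and it ranked 34 among 22180 genes. It did not pass over all genes, with an adjusted p of 0.0762 in limma. When the variance model was given an intensity trend, which lets the expected spread depend on the level, the adjusted p was 2.21e-04.

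Uba7 (row 17521541), the activating enzyme, had values of 6.45 and 6.58 with decitabine, against 6.16 and 6.16 in control. Both groups were narrow, and they were separated by 0.28. Its log2 fold change of 0.35 ± 0.10 (95% confidence interval 0.09 to 0.62) corresponded to 1.28-fold and did not pass (adjusted p = 0.25 in limma).

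Ube2l6 (row 17372604), the conjugating enzyme, had values of 7.61 and 7.85 with decitabine, against 7.31 and 7.50 in control. The gap between the groups, 0.11, was smaller than the distance of 0.24 between the decitabine arrays and that of 0.19 between the control arrays. Its log2 fold change was 0.32 ± 0.13 (adjusted p = 0.371 in limma), and its 95% confidence interval of −0.02 to 0.67 held 0.

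Herc6 (row 17458962), the ligase, had values of 8.52 and 8.66 with decitabine, against 7.93 and 8.20 in control. Here the control arrays were the wider pair, 0.27 apart, and the gap between the groups was 0.32. The log2 fold change was 0.52 ± 0.13 (95% confidence interval 0.18 to 0.87), a 1.44-fold difference with an adjusted p of 0.217 in limma. With the intensity trend the adjusted p of Herc6 was 0.00864.

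Usp18 (row 17462437), the removing protease, had values of 7.26 and 7.76 with decitabine, against 5.30 and 5.35 in control. The groups were separated by 1.91, which was 3.76 times the distance between its decitabine arrays. Its means were 7.51 ± 0.36 with decitabine and 5.32 ± 0.04 in control (SD, n = 2 each). The log2 fold change of 2.19 ± 0.19 (95% confidence interval 1.71 to 2.67) ranked 3 among 22180 genes, and Usp18 passed with an adjusted p of 0.0495 in limma, close to the threshold. The call was lost with quantile normalization (adjusted p = 0.0588 in limma, 29 of all genes called) and robust eBayes (0.0591, 18 called). It was also lost with a block for replicate number (0.116) and a test of all 41345 rows (0.33), where 0 of all genes passed. Without any 1 of the 4 arrays, which leaves 1 array in a group, the log2 fold change of Usp18 was 1.93 to 2.44.

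**Figure D2:**
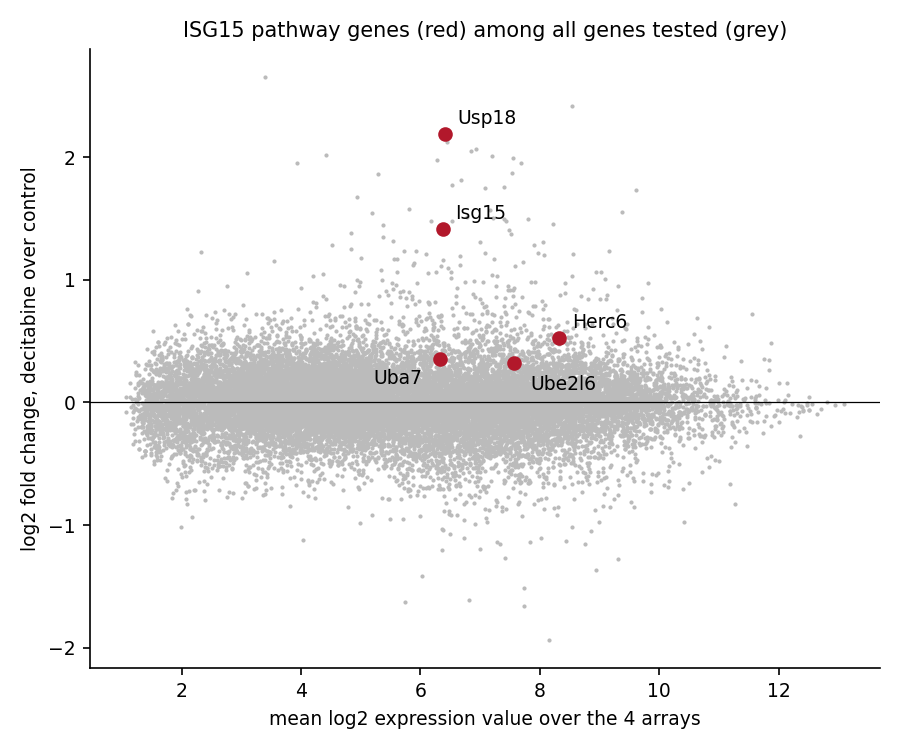
Mean log2 expression value over the 4 arrays (x axis) against log2 fold change, decitabine over control (y axis), for the 22180 genes tested in grey, with the 5 pathway genes in red. Usp18 (2.19) and Isg15 (1.41) lie above nearly all genes of their level, and Herc6, Uba7 and Ube2l6 lie at the upper edge of the main cloud.

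In order of fold change the genes ran from Usp18 through Isg15, Herc6 and Uba7 to Ube2l6. The confidence intervals of Usp18 and Isg15 overlapped between 1.71 and 1.83. Those of Isg15 and Herc6 did not, with a lower bound of 0.99 for Isg15 and an upper bound of 0.87 for Herc6. The intervals of Herc6, Uba7 and Ube2l6 overlapped broadly. Differences between these genes were not tested. In rank of log2 fold change, Herc6 was at 475, Uba7 at 1407 and Ube2l6 at 1691 of 22180. The level of a row depends on its probes, so levels are not compared between genes. Each of the 5 lay above the median level of all genes, from the 63.1 percentile for Uba7 to the 86.7 percentile for Herc6. On the control arrays alone, Usp18 lay at the 51.3 percentile and Isg15 at the 55.6 percentile.

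The 2 decitabine arrays differed in the same direction for the whole pathway. Decitabine replicate 2 was the higher of the pair in 5 of 5 genes, against 48.3% of all genes tested, and control replicate 2 was the higher in 4 of 5, against 47.7%. The distance was largest in Usp18, at 0.51, and smallest in Uba7 and Herc6, both at 0.13. Of the 11 measured interferon-induced antiviral genes, 10 were also higher on decitabine replicate 2. The part of this array in the results was measured by leaving it out. Without decitabine replicate 2 the log2 fold changes were 1.93 for Usp18, 1.20 for Isg15, 0.46 for Herc6, 0.29 for Uba7 and 0.20 for Ube2l6, all still positive, and 0 of the 5 passed. Over all genes 0 passed then too, with 2891 at an unadjusted p under 0.05 in limma.

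**Figure D3:**
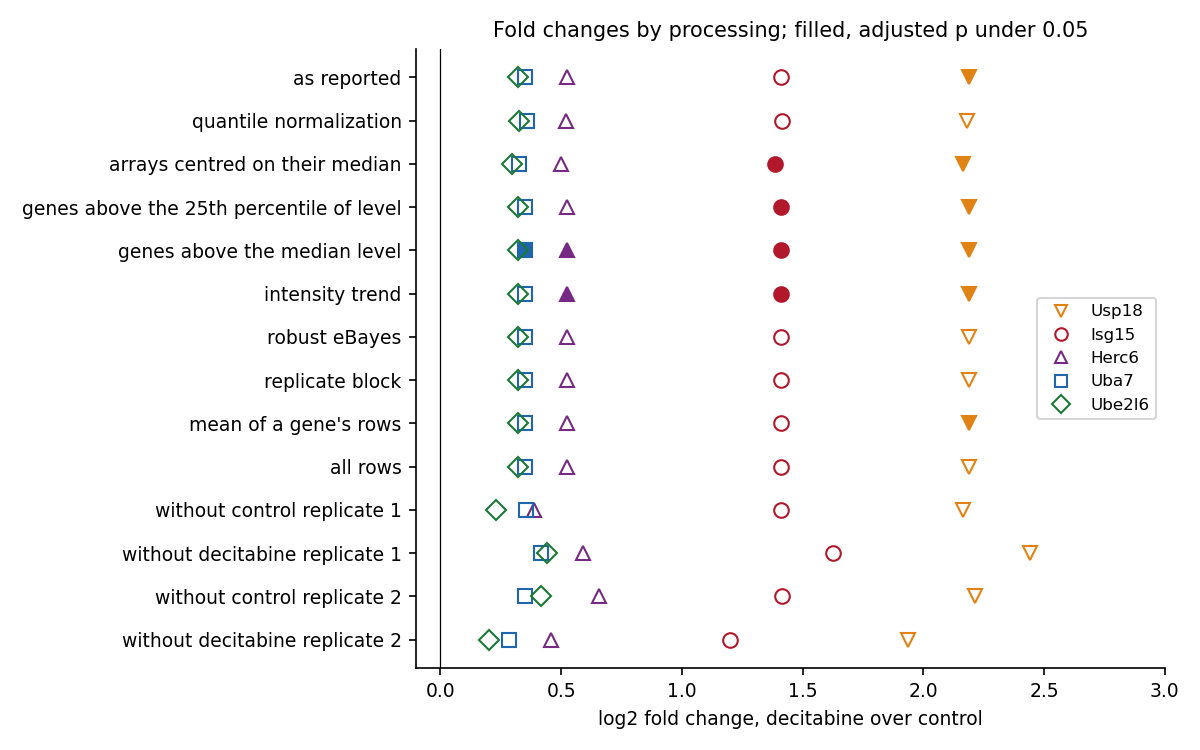
Log2 fold change, decitabine over control (x axis), of the 5 pathway genes under the reported processing and 13 alternatives (y axis), with filled symbols where the adjusted p was under 0.05. All points lie right of 0, Usp18 between 1.93 and 2.44 and Isg15 between 1.20 and 1.63, while the filled symbols change from row to row.

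Related enzymes and modifiers, measured in the same way, were compared role by role. None of the related genes named in this paragraph and the next passed over all genes in limma. Among other ubiquitin-like modifiers, Fau, the ubiquitin-like ribosomal fusion protein, was at −0.10 ± 0.12, Nedd8 at −0.05 ± 0.10, and Ubd, which encodes the inflammation-induced modifier FAT10, at −0.16 ± 0.11, where Isg15 was at 1.41. On the positive side were Urm1 (0.12 ± 0.10), Ufm1 (0.11 ± 0.12), Sumo2 (0.09 ± 0.10) and Sumo3 (0.01 ± 0.11). Ubd had values of 3.004 and 3.13 with decitabine, against 3.17 and 3.28 in control, which is the dim end of the arrays, where a change could be missed. The ubiquitin gene Ubb and the ubiquitin E1 gene Uba1 were not analysed here. Uba6, an E1 for ubiquitin and FAT10, was at 0.29 ± 0.10, with a 95% confidence interval that overlapped that of Uba7. Ube2l3, a closely related E2 of ubiquitin, was at −0.10 ± 0.10.

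Of the 4 other HERC ligases measured, 0 passed in limma, and 1 had an unadjusted p under 0.05, against 6.97% of all genes lower. That one was Herc3, at −0.42 ± 0.14, with values of 5.85 and 5.89 with decitabine, against 6.46 and 6.13 in control. Herc1 was at −0.12 ± 0.10, Herc4 at −0.04 ± 0.10 and Herc2 at 0.10 ± 0.11. The confidence interval of Herc6 lay above 0 and overlapped those of Herc2 (−0.18 to 0.388) and Herc4 (−0.296 to 0.22). It did not overlap that of Herc1 (−0.378 to 0.143), and that of Herc3 lay below 0. Differences between these genes were not tested. Among 11 other partners of ISG15 (further ligases, proteases reported to act on ISG15, and the LFA-1 integrin chains through which free ISG15 signals), 0 passed. Unadjusted p-values under 0.05 were seen for 4 higher and 2 lower genes, against 7.34% and 6.97% of all genes. The smallest p-values belonged to the proteases Usp2 (−0.35 ± 0.10) and Usp16 (0.35 ± 0.10). With the intensity trend, 1 of the 11 was higher and 1 lower, against 3.68% of all genes called higher and 3.6% lower in that fit, which called 3 of the 5 pathway genes, Usp18, Isg15 and Herc6.

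**Figure D4:**
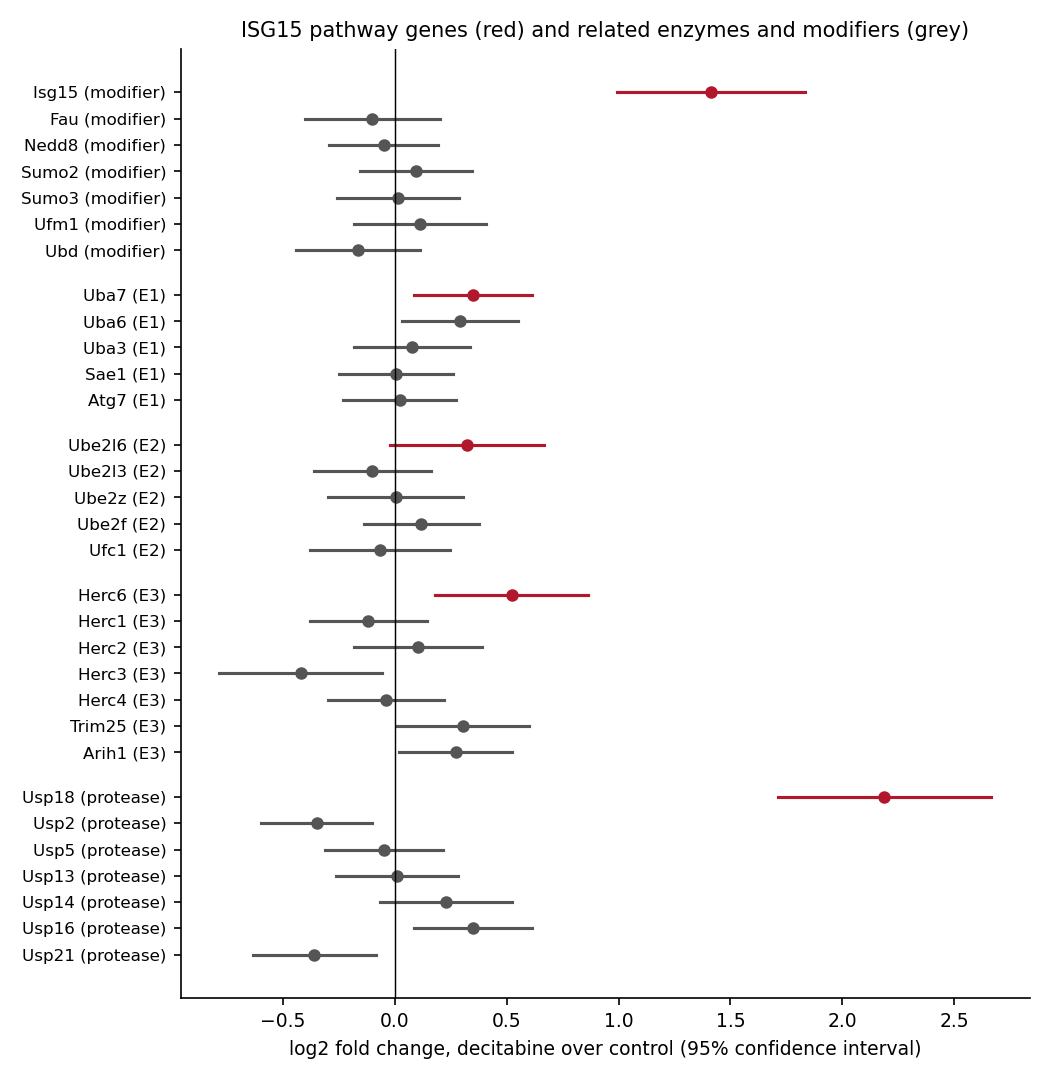
Log2 fold change, decitabine over control (x axis), with 95% confidence intervals from limma, for the 5 pathway genes (red) and related modifiers, E1, E2 and E3 enzymes and proteases (grey), grouped by role down the page. The intervals of Isg15 and Usp18 lie to the right of all other intervals of their role, while that of Uba7 overlaps Uba6 and that of Ube2l6 overlaps Ube2l3. The interval of Herc6 overlaps those of Herc2, Herc4, Trim25 and Arih1.

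In the other ubiquitin-like pathways the list medians lay near that of all genes. The median was 0.05 over 31 other ubiquitin-specific proteases, 0.03 over 11 enzymes of ubiquitin transfer, 0.01 over 14 SUMO genes, −0.03 over 8 NEDD8 genes and −0.05 over 17 genes of the UFM1, URM1, FAT10 and ATG8 pathways. In these 5 lists 0 genes passed in limma, and none was higher by a log2 fold change of 0.5 or more, which 3 of the 5 ISG15 pathway genes and 2.42% of all genes did. Before adjustment, 5 ubiquitin-specific proteases were higher and 2 lower at p under 0.05, against 7.34% and 6.97% of all genes. They were led by Cyld, a deubiquitinase that restrains NF-kB (0.43 ± 0.10), and the nucleolar protease gene Usp36 (0.36 ± 0.10). For the ubiquitin enzymes the higher ones were Ube2s (0.36 ± 0.10), an E2 of the anaphase-promoting complex, and Uba6, and 0 were lower. The SUMO proteases Senp5 (0.38 ± 0.11) and Senp7 (−0.53 ± 0.16) had the smallest p-values of their list and opposite signs. The smallest p-values of the remaining lists belonged to the NEDD8 E1 subunit gene Nae1 (0.21 ± 0.10) and the NEDD8 protease gene Senp8 (−0.18 ± 0.12), and to the autophagy E2 gene Atg10 (−0.30 ± 0.11) and the UFM1 ligase gene Ufl1 (−0.26 ± 0.10).

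**Figure D5:**
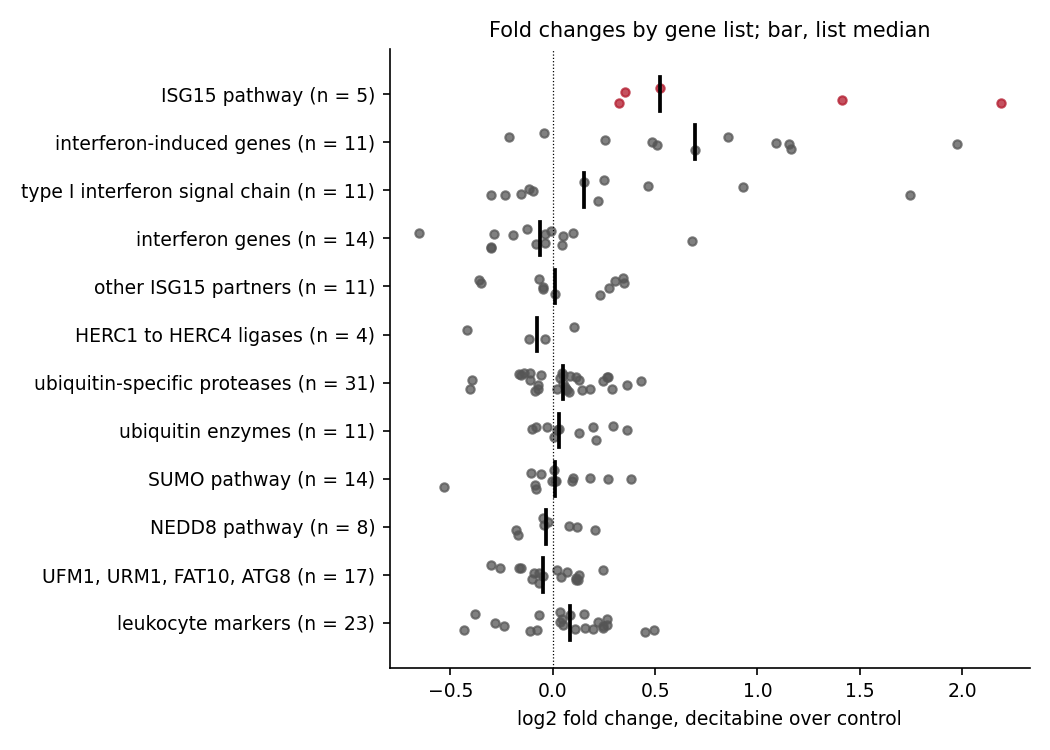
Log2 fold change, decitabine over control (x axis), of every measured gene of 12 lists (y axis; points are spread vertically only for legibility), with the list median as a bar. The ISG15 pathway median is 0.52 and that of the interferon-induced genes 0.69, while the medians of the ubiquitin, SUMO, NEDD8 and other modifier lists lie between −0.05 and 0.05.

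Genes of the type I interferon signal chain, which induces the pathway, were read from the same fit. Irf7, an interferon-induced transcription factor, had values of 7.77 and 8.13 with decitabine, against 6.31 and 6.10 in control. Its log2 fold change of 1.74 ± 0.16 did not pass (adjusted p = 0.0564 in limma). Irf9, the DNA-binding subunit of the ISGF3 complex that recognises the response element, was at 0.93 ± 0.11 (adjusted p = 0.0762). Stat2, an ISGF3 subunit and the partner of Usp18, was at 0.46 ± 0.15 (adjusted p = 0.274).

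The interferon receptor chains did not share this direction. Ifnar2, to which Usp18 binds, had values of 8.93 and 8.90 with decitabine, against 8.96 and 9.06 in control, a log2 fold change of −0.10 ± 0.10. Ifnar1, the other chain, was at −0.23 ± 0.10 (adjusted p = 0.379 in limma). Of 11 genes of this signal chain, 0 passed. Irf7, Irf9 and Stat2 were the 3 with an unadjusted p under 0.05, against 7.34% of all genes higher. With the intensity trend these 3 passed as higher and 0 as lower.

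Interferon genes themselves were mostly dim. Ifnb1, the type I interferon that non-immune cells commonly make, had values of 3.41 and 3.18 with decitabine, against 3.66 and 2.73 in control. Its groups overlapped, and its log2 fold change of 0.10 ± 0.32 had a 95% confidence interval of −0.71 to 0.91. Of 14 interferon genes, 10 were dimmer than the median gene. Ifnab (−0.65 ± 0.10) and Ifna11 (−0.30 ± 0.14) had the smallest p-values. None of the 14 passed in limma, and Ifnab was the 1 with an unadjusted p under 0.05, against 6.97% of all genes lower. Since no background level could be set, low levels of interferon transcript were not measurable here.

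Of 11 other interferon-induced antiviral genes measured, 9 had a positive log2 fold change, as did 11254 of all 22180 genes. The exceptions, named after their values were seen, were Mx1 (−0.21 ± 0.13) and Ifit3 (−0.04 ± 0.14), whose groups overlapped. The decitabine arrays of Mx1 lay below its control arrays, at a dim level, the 20.5 percentile of all genes. Of the 11, 1 rose over all genes in limma, against 0.131% of all genes. It was the RNA-binding protein gene Ifit1 (1.98 ± 0.10, adjusted p = 0.0261). Before adjustment 8 were higher at p under 0.05, against 7.34% of all genes. The call of Ifit1 was lost with the replicate block, where 0 of all genes passed. With the intensity trend 9 of the 11 passed as higher, against 3.68% of all genes. Bst2, which tethers budding virus to the cell, was at 1.09 ± 0.10 (adjusted p = 0.0558). Their median log2 fold change was 0.69. The genes whose values over the 4 arrays were most like the mean profile of the 5 pathway genes, each gene first centred on its own mean, were Sp100, Vat1, Gbp7, Adar and Pxdc1. Their root mean square difference from that profile was 0.046 for Sp100, 0.049 for Vat1, 0.054 for Gbp7, 0.056 for Adar and 0.066 for Pxdc1. The 5 pathway genes themselves lay farther from their mean profile, from 0.233 for Herc6 to 0.62 for Usp18. None of these 5 like genes passed in limma (adjusted p of 0.0694 to 0.135), and 4 arrays cannot separate likeness of profile from likeness of fold change.

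The nearest tested genes on each side of the 5 genes on their chromosomes were compared as well, with gene order taken from RefSeq. None of the 10 neighbours passed in limma. An unadjusted p under 0.05 was seen for 2 of them, against 7.34% of all genes higher and 6.97% lower. The log2 fold changes of the 10 ran from −0.37 for Pyurf, next to Herc6, to 0.46 for Tuba8, next to Usp18. Agrn, the neighbour of Isg15 on one side, was at 0.10 ± 0.10, and Perm1, on the other, at 0.31 ± 0.11 with dim values of 2.95 and 2.95 with decitabine, against 2.55 and 2.72 in control. In 5 of the 10 the decitabine values both exceeded the control values, and in 3 both lay below them, against 23.4% and 22.5% of all genes tested.

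The medians of the 4 arrays over all 41345 rows were 4.60 and 4.66 with decitabine and 4.60 and 4.60 in control. The number of arrays limits the precision, and an exact permutation test of 2 against 2 cannot go below p = 0.333. As markers of cells that could carry an interferon response into the culture, 23 leukocyte markers were measured. Their median log2 fold change was 0.08, 0 passed in limma, and 19 were dimmer than the median gene. At an unadjusted p under 0.05, 2 leukocyte markers were higher and 1 lower, against 7.34% and 6.97% of all genes. Their summed level, on the linear scale, was 1400 to 1505 on the decitabine arrays and 1546 to 1629 on the control arrays. Cd209a, the brightest of them, made up much of that sum, and without it the sum over the other 22 was 497.5 to 525 on the decitabine arrays and 434.2 to 454.3 on the control arrays. The part of this shift in the results was not tested. The pan-leukocyte gene Ptprc had 3.24 and 3.16 with decitabine, against 3.01 and 3.07 in control. Among leukocyte markers the smallest p-values belonged to Cd68 (0.45 ± 0.10) and Itgam (0.50 ± 0.11). Of epithelial markers, Krt18 was at 9.57 and 9.55 with decitabine, against 9.25 and 9.22 in control, while Epcam was at 4.99 and 4.76 with decitabine, against 4.68 and 4.62 in control. The epithelial marker Pax8, dim at the 20.6 percentile of level, was at 3.62 and 3.61 with decitabine, against 3.50 and 3.46 in control. The fibroblast collagen gene Col1a1 was at 10.47 and 10.38 with decitabine, against 10.24 and 10.33 in control. Of 10 mesenchymal and endothelial markers 7 had a positive log2 fold change, and the list median was 0.14. The exceptions were Pdgfra (−0.28 ± 0.10), which passed as lower with the intensity trend, Pdgfrb (−0.17 ± 0.17) and Col1a2 (−0.09 ± 0.10). Of 10 epithelial markers 8 had a positive log2 fold change, and the exceptions were Wt1 (−0.28 ± 0.10), which passed as lower with the intensity trend, and Muc16 (−0.43 ± 0.18). Ptprc, Cd209a, Wt1, Muc16, Krt18, Epcam, Pax8 and Col1a1 were named after their values were seen, and the smallest p-values among the epithelial and the mesenchymal and endothelial markers belonged to Msln (0.86 ± 0.10), Krt8 (0.53 ± 0.13), Thy1 (1.48 ± 0.17) and Kdr (0.38 ± 0.12).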

How the data were processed

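The authors deposited 1 processed value per array row and sample, read here as log2 expression. Its log base, background correction, summarisation and normalization are not given in the sources used here, and scanner files were not used. Of 41345 rows, 23521 carried 1 symbol in GEO's platform annotation. The row with the highest mean stood for each gene, leaving 22180 genes. No column belonged to another series.

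The test was limma 3.58.1 (R 4.3.3), two-sided, with group as the only term and Benjamini-Hochberg adjustment over all genes at 0.05. On simulated data for this comparison with 22180 genes it recovered 0.448% of genes with a 1.5-fold change, 26.9% of those with a 2-fold change and 92.4% of those with a 4-fold change. The simulation changed a small part of the genes and drew noise independently for each value. Recovery after adjustment depends on how many genes change, so these rates need not hold for the real arrays. Figures used Python 3.11.15 and matplotlib 3.10.9.

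Members, lists and tests were chosen with earlier results of these data known, and promoter motifs and neighbours after values were seen. Named genes were the members, the 2 smallest p-values per list, counterpart and signalling genes given by symbol, and the 5 most similar profiles (no symbols of Gm plus digits or with Rik). Alternatives changed the normalization, level filter, variance model, pairing and rows, or left out 1 array.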

Additional observations from a re-analysis of the deposited data

How the results depend on the processing

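All 5 pathway genes kept a positive log2 fold change in each of the 13 alternatives, while the calls moved. Usp18 was called in 5 of the 13. Its call was lost at 2.18 with quantile normalization and at 2.19 with robust eBayes, the replicate block or all rows tested. When 1 array was left out, its log2 fold change was 1.93 to 2.44. Isg15 passed at 1.39 with centred arrays (adjusted p = 0.0493) and at 1.41 with the intensity trend, with genes above the 25th percentile of level (adjusted p = 0.0328) and with genes above the median level (adjusted p = 0.00514). Herc6 passed at 0.52 with the intensity trend and above the median level (adjusted p = 0.0382), and Uba7 at 0.35 above the median level (adjusted p = 0.0482). Ube2l6 passed in none. As reported, 1 pathway gene was called, against 32 of all 22180 genes. With quantile normalization the count of pathway genes was 0, against 29 of all genes, and with robust eBayes 0 against 18. With the replicate block or all rows it was 0, and 0 of all genes passed. For the replicate block the smallest adjusted p of any gene in limma was 0.106, with 2815 genes at an unadjusted p under 0.05. Centred arrays called 2, against 51 of all genes, and the intensity trend 3, against 1615. The lower level filter called 2, against 215 of 16635 genes, and the higher filter 4, against 1251 of 11090. The level filters test fewer genes, 16635 and 11090, and also refit the variance model. The SE of Isg15 was 0.156 and 0.142 with them, against 0.164 as reported. The cause of the changes in calls was not tested for any alternative.

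With the intensity trend 3.68% of all genes were called higher and 3.6% lower. Several lists with 0 called in the reported fit then had calls. All were higher for ubiquitin enzymes (2 of 11), SUMO genes (2 of 14) and the interferon signal chain (3 of 11). Leukocyte markers (23) and other ISG15 partners (11) had 1 higher and 1 lower each. Ubiquitin-specific proteases (31) and epithelial markers (10) had 4 higher and 1 lower each. Mesenchymal and endothelial markers (10) had 2 higher and 1 lower. The interferon signal chain had 1 with centred arrays. The 11 interferon-induced genes, with 1 in the reported fit, had 9 higher with the trend and 2 called with centred arrays. They had 0 with the replicate block, where 0 of all genes passed. The replicate numbers were shared between groups without a stated batch, and the differences between replicates 1 and 2 correlated at −0.0176 between groups over 22180 genes, which are not independent. Without scanner files, no signal over background could be set for dim genes.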
